A study of Mus musculus with 12 samples.

Results

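Heme synthesis and iron handling were followed through 9 genes of the inguinal white adipose tissue (iWAT), chosen by name out of the 14159 genes with deposited normalized counts. They comprise 4 enzymes of heme synthesis (Alas1, Alad, Cpox and Fech), 4 genes of iron uptake, storage and export (Tfrc, Fth1, Ftl1 and Slc40a1) and the heme-degrading enzyme Hmox1. The rule uses no measured value, although the genes were proposed with earlier results of these data known. All 9 genes were listed and passed the expression filter (an average of 10 or more normalized counts across the 12 libraries).

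The study asked how the transcription factor ATF4 acts in iWAT early in browning, the shift of white fat toward heat production in the cold. Whole iWAT was sequenced in 4 groups with 3 biological replicates each, numbered 0 to 2. Atf4AKO mice carried Atf4 fl/fl alleles and Adipoq-Cre, which deletes Atf4 in adipocytes alone, so the other cells of the tissue kept the gene. Atf4WT mice were Atf4 fl/fl littermates without Cre. Both genotypes were on a C57BL/6 background and were kept either at room temperature (RT, 22 °C) or for 24 h in the cold (5 °C). The age and sex of the sequenced mice are not given in the sources used here.

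Heme is made in a chain of reactions that starts and ends in mitochondria. ALAS1 makes the first intermediate and is rate-limiting outside red cell precursors, ALAD and CPOX act in between, and ferrochelatase (FECH) inserts the iron. Cytochromes of the respiratory chain need this heme, so the pathway bears on the mitochondria that thermogenic fat builds. Iron enters cells through the transferrin receptor (TFRC), is stored in ferritin, a shell of heavy (FTH1) and light (FTL1) chains, and leaves through ferroportin (SLC40A1). HMOX1 breaks heme down and frees its iron.

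The 4 iron genes carry iron-responsive elements in their transcripts, short hairpins that bind the iron regulatory proteins when iron is scarce. Elements in a 3′ UTR protect the transcript from decay, whereas those in a 5′ UTR hold back its translation, so only the former act on the transcript level that RNA-seq measures. They are printed because they divide the iron genes into these 2 kinds. A search of the GENCODE transcripts (GRCm38, which is mm10) took a bulged C, an upper stem of 5 paired bases (G with T allowed) and a 6-base CAGTGN loop, which is in capitals here.
Tfrc element 1: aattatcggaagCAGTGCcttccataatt
Tfrc element 2: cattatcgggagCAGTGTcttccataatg
Tfrc element 3: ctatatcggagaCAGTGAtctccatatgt
Tfrc element 4: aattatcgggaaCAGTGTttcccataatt
Fth1 element 1: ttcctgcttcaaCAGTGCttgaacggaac
Ftl1 element 1: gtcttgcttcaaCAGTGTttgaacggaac
Slc40a1 element 1: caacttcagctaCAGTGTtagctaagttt

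The 4 elements found in Tfrc lie in its 3′ UTR on the plus strand, at chr16:32631219-32631247, chr16:32631598-32631626, chr16:32631663-32631691 and chr16:32631710-32631738. Those of Fth1 (chr19:9982732-9982760, plus strand), Ftl1 (chr7:45459779-45459807, minus strand) and Slc40a1 (chr1:45925465-45925493, minus strand) lie in the 5′ UTR. Among 21877 coding genes, 294 (1.34%) held such a match, and Tfrc was the only one with 3 or more in a transcript. A match describes the letters and does not show that a protein binds. Elements that depart from the pattern searched are missed, so a gene can hold more than were found.

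The libraries held 25719476 to 29105147 reads on the listed genes, and replicates differed by more than counting error. Atf4 was at 4107 to 5669 normalized counts in Atf4WT at RT and 5756 to 7644 after cold, against 1470 to 1639 and 788 to 1578 in Atf4AKO. All 10 white adipocyte markers were listed, and their summed counts were 1281857 to 1960455 per library. After cold the sums were 1281857 to 1732940 in Atf4WT and 1637272 to 1960455 in Atf4AKO, with overlap. All 10 had a log2 difference above 0 between Atf4AKO and Atf4WT after cold (median 0.21), and 8 of 10 at RT (median 0.05). In every cold-exposed Atf4WT library the summed B cell markers (14 of 18 listed, 5395 to 18074 counts) were above those of the other libraries (194 to 5368), although the highest of these, Atf4WT RT replicate 2, lay just below. The summed T cell markers (17 of 20 listed) were likewise at 1539 to 11643 counts in cold-exposed Atf4WT and at 336 to 1407 in the other libraries. The summed muscle markers (7 of 10 listed) reached 112968 in Atf4WT RT replicate 2 and 38312 in Atf4WT cold replicate 0, against 104 to 4057 in the others. Only 4 of 10 erythroid markers were listed, with hemoglobin Hba-a2 at 13.8 to 31.6 counts. In whole tissue, fewer cells of a type and less RNA per cell cannot be told apart.

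Per kilobase of transcript, the ferritin genes stood far above the rest. At RT in Atf4WT, Fth1 had 45645 ± 2320 normalized counts per kb (SD, n = 3) and Ftl1 44374 ± 8336, and their libraries overlapped. The enzymes Alas1 (2718 ± 584) and Alad (2136 ± 426) came next and overlapped as well. Below them followed Hmox1 at 799 ± 138, Fech at 483 ± 36.6, Tfrc at 183 ± 54.7, Cpox at 124 ± 9.13 and Slc40a1 at 90.8 ± 19.5 counts per kb. These 5 did not overlap with their neighbours in this order, although the lowest library of Cpox (114) lay just above the highest of Slc40a1 (113). Lengths were those of 1 transcript per gene, so another transcript could change the order. For Fth1 a coding transcript was used in place of the identifier given with the counts. Both ferritin genes are uncertain in level, since GENCODE lists processed pseudogenes of each and only uniquely mapped reads were counted.

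**Figure D1:**
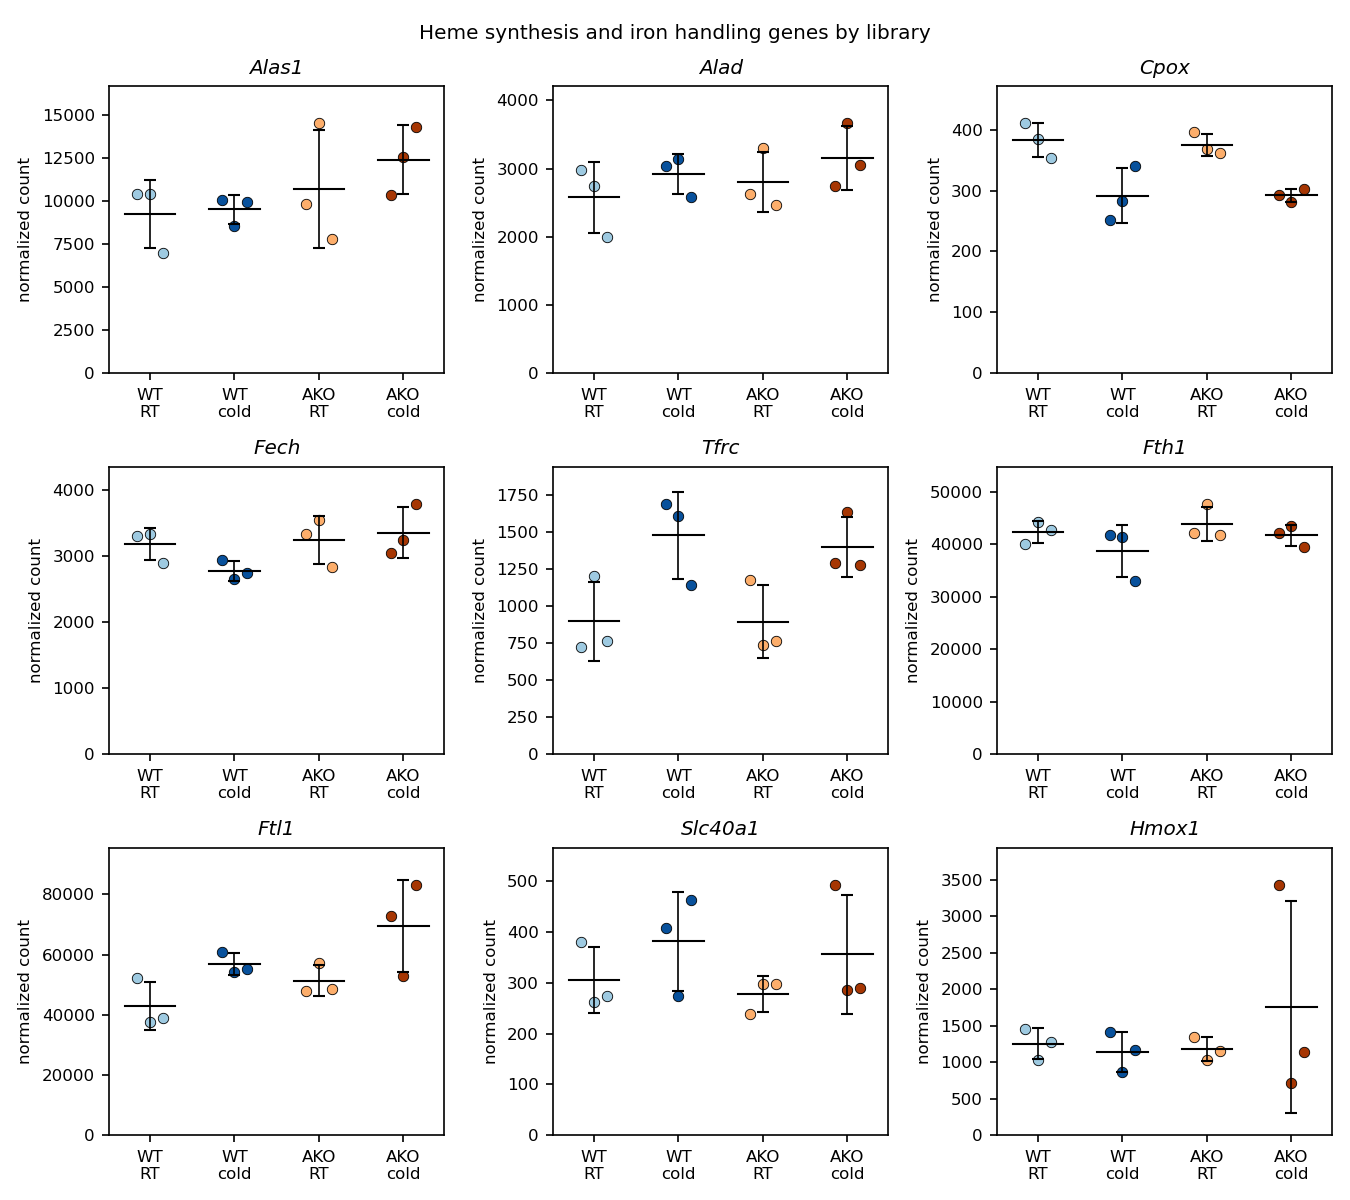
Normalized counts (vertical axes, from 0) of the 9 genes in each library of the 4 groups; points are libraries, the long bar is the mean and the error bar the SD of 3 libraries. Tfrc was higher after cold in both genotypes (means 1478 and 1401 against 897 and 893), Cpox was lower, and 1 Atf4AKO cold library stood at 3425 counts of Hmox1.

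The first question was how cold exposure moved these genes, asked in each genotype. The rule for calling a gene (the DEG threshold) was taken from the study's methods. It asks for a fold change over 1.5 with an unadjusted p-value under 0.05, here from limma on log2(normalized count + 1). Adjusted p-values (Benjamini-Hochberg, over the 13404 genes tested) are given beside it. In Atf4WT iWAT 1 of the 9 genes passed the DEG threshold, Tfrc, which rose, while 21.2% of all genes did. The adjusted p-value was under 0.05 for Tfrc and Cpox, or 2 of 9, against 31.9% of all genes. In Atf4AKO iWAT Tfrc was again the only one past the DEG threshold (17.2% of all genes), and none of the 9 had an adjusted p-value under 0.05 in limma (25.9% of all genes). There 3 of the 9 had an unadjusted p-value under 0.05, against 5235 of all 13404 genes. By adjusted p-value under 0.05, edgeR gave 1 of the 9 (Cpox), against 3456 of 13661 genes. DESeq2 gave 3 (Tfrc, Ftl1 and Cpox), against 4011 of 14159 genes. In limma and edgeR each of these shares of the 9 genes was below that of all genes, and in DESeq2 it was slightly above. The median log2 fold change of the 9 genes was 0.06 in Atf4WT and 0.24 in Atf4AKO, against 0.00 and -0.03 over all genes tested.

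Tfrc, the gene of iron uptake, had 724, 1205 and 761 normalized counts in the 3 Atf4WT libraries at RT and 1687, 1608 and 1139 after cold. The groups overlapped, because the highest library at RT exceeded the lowest after cold. The fold change was 1.67 (95% interval 1.16 to 2.39, log2 0.74, adjusted p = 0.0343). In Atf4AKO iWAT the counts were 1177, 736 and 766 at RT and 1288, 1636 and 1280 after cold, without overlap. Here the fold change was 1.60 (1.11 to 2.29, log2 0.67, adjusted p = 0.0571). The log2 value fell to 0.55 without Atf4AKO RT replicate 1, to 0.58 without Atf4AKO RT replicate 2 and to 0.56 without Atf4AKO cold replicate 1, and the call was lost in each case. Without each of the other libraries, and in Atf4WT without any of the 12, Tfrc kept its call. The summed B cell markers, at 5395 to 18074 counts in cold-exposed Atf4WT, were at 194 to 874 counts in the cold-exposed Atf4AKO libraries. The counts of Tfrc in these Atf4AKO libraries lay within the range of cold-exposed Atf4WT. The lymphocyte score of a library is the mean log2 value of its B and T cell markers. With this score as a covariate, the log2 change of Tfrc was 1.13 in Atf4WT. The score was highest in cold-exposed Atf4WT, so that fit cannot fully separate it from the group. The part of lymphocytes in the values of Tfrc was not tested.

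The genes with the pattern most like that of Tfrc over the 12 libraries were sought among 11841 genes with a mean of at least 50 counts, by the root mean square difference of log2 values centred on each gene. They were Acyp2 (0.17), Ss18l2 (0.20) and Poln (0.20), where Tfrc itself varied by 0.45 around its own mean. Poln overlaps Haus3 on the same strand, so that its counts are uncertain.

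Cpox, which encodes the enzyme for the conversion of coproporphyrinogen in the intermembrane space of mitochondria, moved the other way. It had 411, 385 and 354 counts in Atf4WT at RT and 252, 283 and 341 after cold, and in Atf4AKO 396, 368 and 362 against 293, 281 and 303. In both genotypes every cold-exposed library was below every library at RT. The fold changes were 0.757 in Atf4WT (log2 -0.40, 95% interval -0.67 to -0.13, adjusted p = 0.0290) and 0.780 in Atf4AKO (log2 -0.36, -0.63 to -0.09, adjusted p = 0.0526), short of the fold of the DEG threshold. Over the alternatives tried, the adjusted p-value of Cpox ranged from 0.0106 to 0.149 in Atf4WT and from 0.0276 to 0.156 in Atf4AKO.

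The 2 ferritin chains differed in their values. Ftl1 had 52232, 37577 and 39052 counts at RT and 60975, 54175 and 55176 after cold in Atf4WT, which did not overlap. In Atf4AKO the counts were 47810, 57215 and 48709 at RT and 72671, 52995 and 82981 after cold, with overlap. The log2 change was 0.42 in each genotype, short of the DEG threshold, with adjusted p-values of 0.107 and 0.117 in limma. DESeq2 gave Ftl1 an adjusted p-value under 0.05 in Atf4AKO. Without Atf4AKO cold replicate 1 the log2 change in Atf4AKO was 0.60 and passed the DEG threshold, with an adjusted p-value of 0.0400 in limma. Fth1 lay between 32936 and 47641 counts in all libraries, with log2 changes of -0.14 (-0.41 to 0.13) and -0.07 (-0.34 to 0.20). The ratio of Ftl1 to Fth1 counts was 0.848 to 1.30 in Atf4WT at RT and 1.31 to 1.68 after cold, and 1.13 to 1.20 against 1.22 to 2.10 in Atf4AKO. In both genotypes the lowest ratio after cold lay just above the highest at RT. This ratio was formed after the values were seen and was not tested.

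The other enzymes of heme synthesis among the 9 did not pass in either genotype. Alas1 had 10386, 10381 and 6944 counts in Atf4WT at RT and 10029, 8543 and 9924 after cold, and its interval spanned log2 changes of -0.43 to 0.55. In Atf4AKO it had 9822, 14491 and 7802 counts at RT and 10313, 12535 and 14292 after cold, with an interval of -0.25 to 0.74. Without Atf4WT RT replicate 2, the library with 6944 counts, the log2 change of Alas1 in Atf4WT turned from 0.06 to -0.13. Alad ranged from 1999 to 3663 counts over all libraries, with log2 changes of 0.20 and 0.17. With the lymphocyte score as a covariate, Alas1 (0.70) and Alad (0.76) passed the DEG threshold in Atf4WT, but the adjusted p-value was 0.139 for Alas1 and 0.0183 for Alad. Over all alternatives these adjusted p-values were 0.139 to 0.961 and 0.0183 to 0.921. Fech had log2 changes of -0.19 (-0.42 to 0.04, adjusted p = 0.193) in Atf4WT and 0.05 (-0.18 to 0.29) in Atf4AKO.

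The libraries did not overlap between cold and RT for 2 genes in Atf4WT (Cpox and Ftl1) and for 2 in Atf4AKO (Tfrc and Cpox). Over all genes tested this held for 46.8% in Atf4WT and 41.7% in Atf4AKO.

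Slc40a1 and Hmox1, both abundant in macrophages that recycle iron, had the widest intervals of the 9 genes. Slc40a1 ranged from 262 to 381 counts in Atf4WT at RT, 273 to 463 after cold, 238 to 299 in Atf4AKO at RT and 287 to 492 after cold. Its log2 changes with cold were 0.31 (-0.25 to 0.86) in Atf4WT and 0.32 (-0.24 to 0.87) in Atf4AKO, and neither passed. Hmox1 had 1453, 1025 and 1283 counts in Atf4WT at RT, 1410, 861 and 1164 after cold, and 1350, 1028 and 1160 in Atf4AKO at RT. The cold-exposed Atf4AKO libraries had 3425, 713 and 1132 counts of Hmox1 and thus held both its highest and its lowest value. The log2 change of Hmox1 was 0.26 in Atf4AKO (-0.70 to 1.23) and turned to -0.38 without Atf4AKO cold replicate 0.

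Of 13 macrophage markers 12 were listed, none at 0. Their summed counts were 26638 to 35185 in Atf4WT at RT, 25597 to 46940 in Atf4AKO at RT, 14374 to 38217 in Atf4WT after cold and 5274 to 30869 in Atf4AKO after cold. In every group, at RT and after cold, the library with the fewest macrophage counts, replicate 1, also had the least Hmox1. Replicate 1 had the least Slc40a1 as well in each group except Atf4AKO at RT. In cold-exposed Atf4AKO that gap was small, with 287 counts of Slc40a1 against 290 in replicate 2. The library with 3425 counts of Hmox1 had 30869 macrophage counts, close to the 30423 of Atf4AKO cold replicate 2 with 1132 counts of Hmox1. At RT the library with the most macrophage counts, Atf4AKO RT replicate 0 (46940), had the lowest count of Slc40a1 of all 12 (238). The part of macrophages in these values was not tested.

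**Figure D2:**
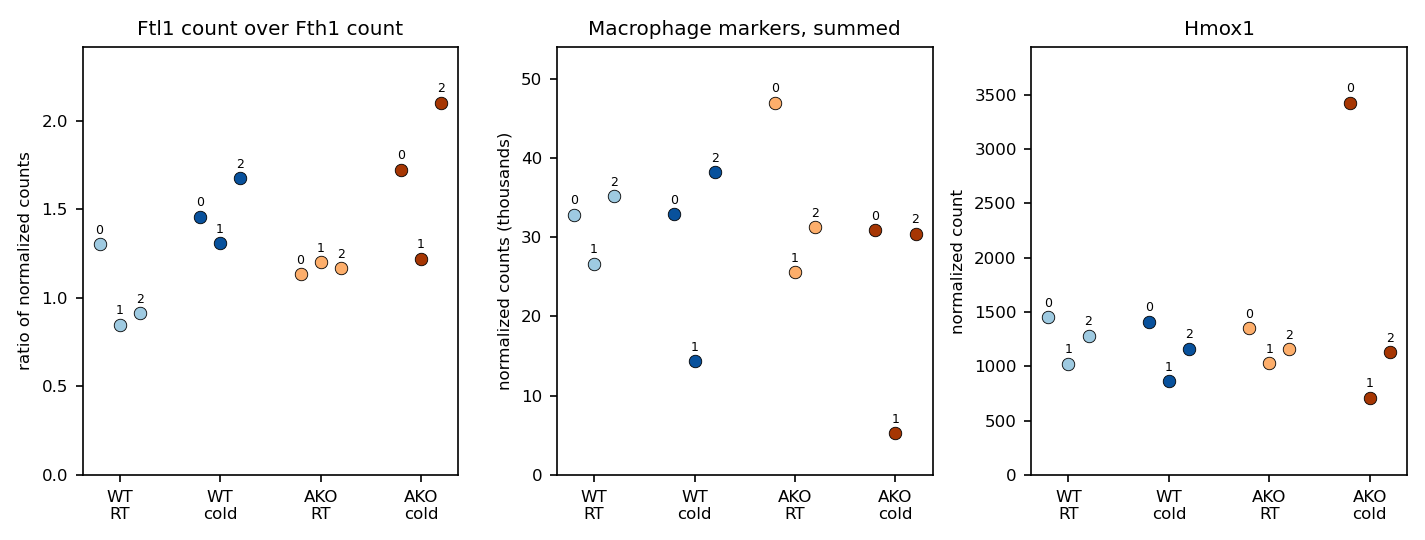
For each library, numbered by replicate, the ratio of Ftl1 to Fth1 normalized counts (left), the summed normalized counts of 12 macrophage markers in units of 1000 (middle) and the normalized count of Hmox1 (right), all from 0. The ratio was higher after cold in both genotypes, and replicate 1 of each group had the lowest macrophage sum and the lowest Hmox1 count of its group.

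The second question was whether the loss of ATF4 in adipocytes changed these genes. After cold, limma called none of the 9 between Atf4AKO and Atf4WT iWAT at the DEG threshold (6.40% of all genes) or by the adjusted p-value (0.0298% of all genes). By unadjusted p-value 1 of the 9, Fech, was under 0.05, against 1571 of all 13404 genes. In edgeR and DESeq2 the count was also 0 by the DEG threshold or the adjusted p-value. Fech, which adds the iron to the ring, had 2943, 2647 and 2739 counts in cold-exposed Atf4WT and 3037, 3232 and 3777 in cold-exposed Atf4AKO libraries. All Atf4AKO libraries were higher, by a fold change of 1.20 (1.02 to 1.41), with a p-value of 0.0297 and an adjusted p-value of 0.339 in limma. Alas1 was also higher in each cold-exposed Atf4AKO library (10313, 12535 and 14292 counts) than in each Atf4WT library (10029, 8543 and 9924), with a fold change of 1.30 (0.921 to 1.82, adjusted p = 0.566 in limma). With these 2 of 9 genes not overlapping, both higher, the share over all genes was 16.5%, or 8.68% counting only genes higher in Atf4AKO. The 10 white adipocyte markers had a median log2 difference of 0.21 in the same comparison, and the part of adipocytes in these values was not tested. With the lymphocyte score as a covariate the log2 differences turned from 0.27 to -0.045 for Fech and from 0.37 to -0.41 for Alas1, and Alad passed the DEG threshold at -0.59 with an adjusted p-value of 0.998 (0.652 to 0.998 over all alternatives).

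For the iron genes after cold, the log2 difference between Atf4AKO and Atf4WT was -0.07 for Tfrc (-0.59 to 0.45), 0.27 for Ftl1 (-0.14 to 0.68), 0.11 for Fth1 (-0.15 to 0.38) and -0.11 for Slc40a1 (-0.67 to 0.44). These intervals leave room for differences of the size of the DEG threshold, at a log2 value of 0.58, for Tfrc, Ftl1 and Slc40a1 and not for Fth1. Hmox1 differed by 0.32 (-0.64 to 1.29), which became -0.32 without Atf4AKO cold replicate 0.

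At RT no gene of the 9 passed either rule in limma, edgeR or DESeq2 (0.463% of all genes passed the DEG threshold and 0.00746% the adjusted p-value in limma). Of the 9, 0 had an unadjusted p-value under 0.05, against 205 of all 13404 genes in limma. The log2 differences ran from -0.12 for Slc40a1 to 0.27 for Ftl1, and the smallest p-value was 0.179 in limma. All 9 genes overlapped between the genotypes, whereas 6.30% of all genes did not.

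The third question was whether the cold response differed between the genotypes. This difference, tested as the interaction in limma, did not pass for any of the 9 genes by the DEG threshold (4.63% of all genes) or the adjusted p-value (0.0% of all genes). None had an unadjusted p-value under 0.05, against 928 of all 13404 genes. In edgeR and DESeq2 the count was also 0 by either rule. The cold response of Tfrc differed by a log2 value of -0.06 with an interval of -0.80 to 0.67, that of Cpox by 0.04 (-0.34 to 0.42) and that of Fech by 0.24 (-0.09 to 0.57), with an adjusted p-value of 0.921 in limma.

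**Figure D3:**
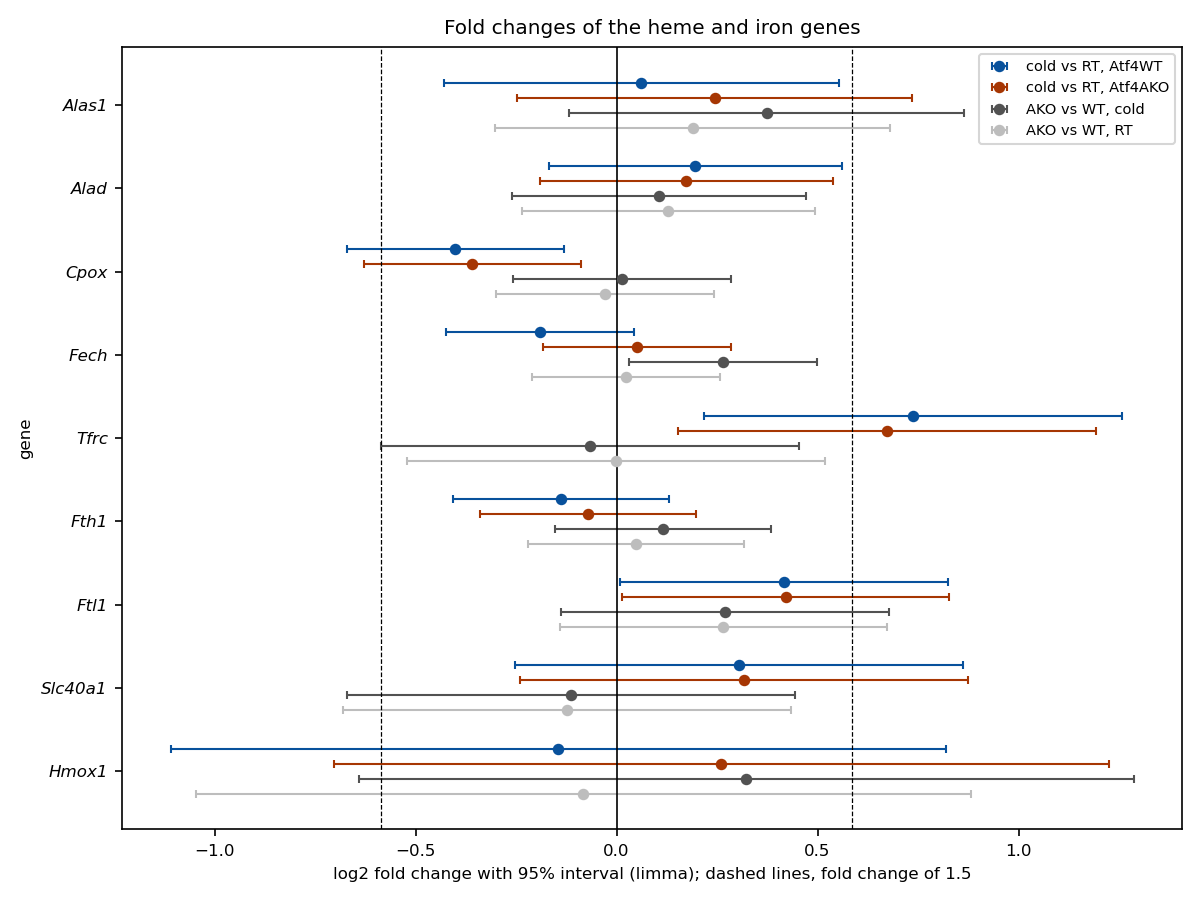
Log2 fold changes (horizontal axis) with 95% intervals from limma for the 9 genes in the 4 comparisons of groups; dashed lines mark a fold change of 1.5. Tfrc lay beyond this line after cold in both genotypes (0.74 and 0.67), Cpox was below 0 in both (-0.40 and -0.36), and the genotype comparisons lay between -0.12 and 0.37.

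Around these genes, 78 further genes of heme and iron metabolism were listed by role, and 73 of them were measured and tested (Tf, Ftmt, Hamp, Hamp2 and Fdx2 are not listed). After cold 15 rose and 5 fell at the DEG threshold in Atf4WT (27.4% against 21.2% of all genes), and 15 rose and 4 fell in Atf4AKO (26.0% against 17.2%). Their median log2 change was 0.19 in Atf4WT and 0.26 in Atf4AKO. Without Atf4AKO cold replicate 1 the number that fell in Atf4AKO was 2.

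Of the 6 lists, that of genes that put heme into respiratory enzymes had the highest median change. Cox10, which begins the conversion of heme to the heme A of cytochrome oxidase, rose from 408 ± 44.9 counts (SD, n = 3) to 1159 ± 47.4 in Atf4WT and from 479 ± 73.4 to 1253 ± 147 in Atf4AKO (log2 1.51 and 1.39, adjusted p = 4.65e-05 and 7.18e-05 in limma). Hccs, which attaches heme to cytochrome c, rose from 680 ± 34.6 to 1791 ± 200 and from 692 ± 68.5 to 2005 ± 161 counts (log2 1.39 and 1.53). Cox15, which completes heme A, had log2 changes of 0.45 in Atf4WT, short of the threshold, and 0.64 in Atf4AKO, where it passed. Thus 2 of 3 genes of this list passed in Atf4WT and 3 of 3 in Atf4AKO. Hccs overlaps the listed gene Arhgap6, and Cox15 overlaps Entpd7 and Cutc, each on the other strand, and the strand setting of the counting is not given.

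Of 11 other genes of heme synthesis, 2 rose in each genotype and none fell. Slc25a39, a mitochondrial carrier needed for heme synthesis, had log2 changes of 0.94 in Atf4WT and 0.87 in Atf4AKO. Tmem14c, which helps move porphyrin intermediates into mitochondria, had 0.83 and 0.82. Further enzymes of the chain, named after their values were seen, had smaller log2 changes, namely Uros -0.03 and 0.10, Urod 0.36 and 0.41, and Ppox 0.27 and 0.45 in Atf4WT and Atf4AKO, and none passed the DEG threshold. Uros and Ppox also overlap listed genes on the other strand. The erythroid enzyme Alas2 was at 203 to 449 counts and did not pass (log2 -0.14 and -0.39).

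Iron-sulfur clusters, the other main use of mitochondrial iron, are built by a set of 25 genes of which 24 were tested. After cold 10 rose and 1 fell in Atf4WT, and 8 rose and none fell in Atf4AKO. Ciapin1, a cytosolic assembly factor, had log2 changes of 1.55 and 1.55, and Ciao3, of the same cytosolic machinery, 0.79 and 0.96. Hspa9, the mitochondrial chaperone of cluster transfer, had 1.03 and 0.95. Hscb, the cochaperone of Hspa9, was the 1 that fell in Atf4WT (log2 -0.61), and it had -0.55 in Atf4AKO. Ciapin1 overlaps Coq9, which is also listed, on the other strand.

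Other genes of iron uptake, release and storage went in both directions, with 15 of 17 tested. Steap4, a metalloreductase, fell from 16760 ± 4330 to 6921 ± 741 counts in Atf4WT and from 18086 ± 3417 to 7324 ± 1321 in Atf4AKO (log2 -1.25 and -1.30, adjusted p = 0.00103 in each, limma). Tfr2, the second transferrin receptor, fell as well (log2 -1.27 and -1.19). Hephaestin (Heph), a ferroxidase that works with ferroportin, passed in Atf4WT (log2 -0.98) and not in Atf4AKO (-0.48). The difference of its cold responses was 0.49 (0.21 to 0.77), with a p-value of 0.00245 and an adjusted p-value of 0.474 in limma, and DESeq2 gave an adjusted p-value under 0.05 for it. Heph overlaps Hsf3 on the other strand. Slc11a2 (DMT1), which carries iron across membranes, passed in Atf4AKO (log2 0.61) and not in Atf4WT (0.39), a difference of 0.22 with an adjusted p-value of 0.902 in limma. Steap2 passed in Atf4AKO at a log2 change of -1.49 (Atf4WT -1.07), with libraries between 6.80 and 119 counts.

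Of 12 genes of heme breakdown, binding and transport, 1 rose and 1 fell in each genotype. Hpx, the plasma heme-binding protein hemopexin, was scarce and went from 10.6 ± 2.08 to 25.8 ± 7.09 counts in Atf4WT and from 9.06 ± 4.97 to 57.2 ± 29.4 in Atf4AKO. Lrp1, the receptor that takes up heme bound to hemopexin among many other ligands, fell (log2 -0.86 and -0.61). None of the 8 tested of 10 iron sensing genes passed the DEG threshold in either genotype in limma. By adjusted p-value 2 of the 8 were under 0.05 in Atf4WT (31.9% of all genes) and 0 in Atf4AKO (25.9% of all genes). The 2 were Bmp6, a ligand that induces hepcidin (log2 -0.55), and Fbxl5, which marks iron regulatory protein 2 for degradation when iron is plentiful (log2 -0.27). Both were named after their values were seen.

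Between the genotypes, limma called none of the 73 genes after cold, at RT or for the difference of the cold responses. In these comparisons 3, 2 and 1 of them had an unadjusted p-value under 0.05 (Heph, Slc11a2 and Pcbp1 after cold, and Heph for the difference). Of all 13404 genes, 1571, 205 and 928 did, so after cold and for the difference the share of the 73 was the lower one. At the DEG threshold edgeR called 1, 1 and 0 genes (Hpx after cold and Hjv at RT), and DESeq2 called 1, 0 and 0 (Hpx). By adjusted p-value DESeq2 also gave Heph under 0.05 after cold, where its log2 difference was 0.37 with an adjusted p-value of 0.0783 in limma. Hjv had 2.76, 6.74 and 671 counts in Atf4WT at RT against 1.86 to 2.78 in Atf4AKO, so that its difference lay mainly in 1 library, Atf4WT RT replicate 2, which also held 112968 counts of muscle markers. The part of muscle in it was not tested.

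**Figure D4:**
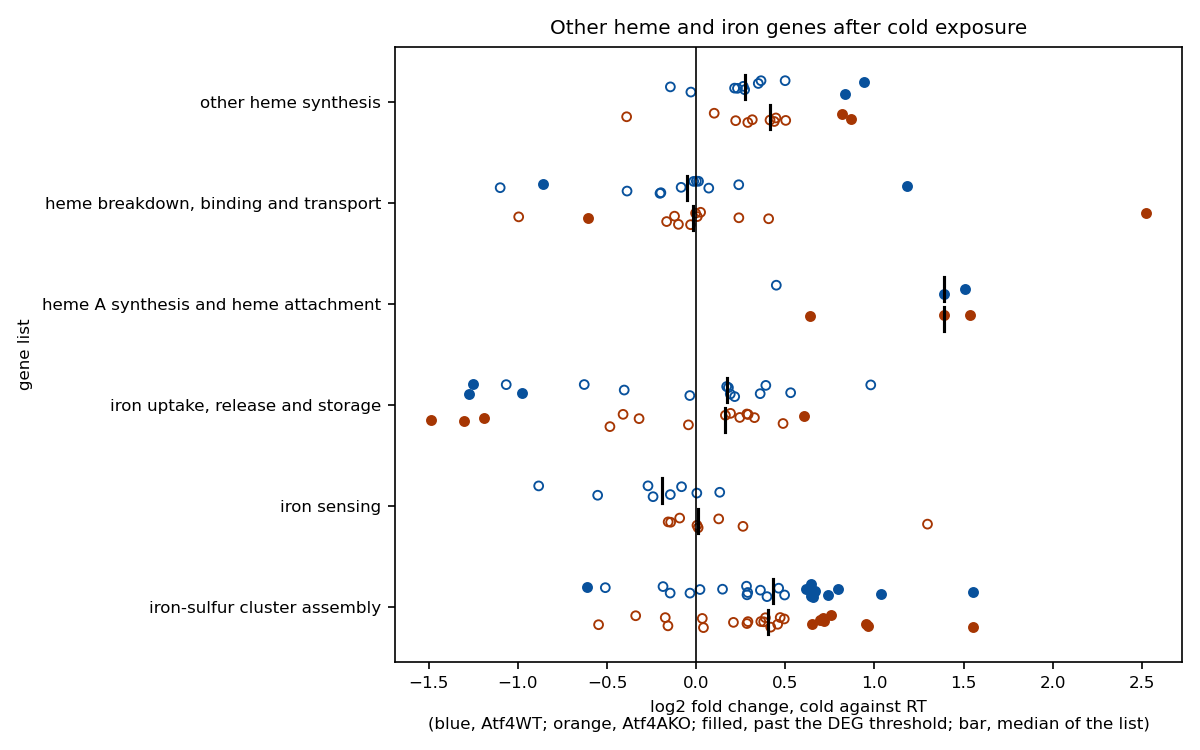
Log2 fold changes with cold (horizontal axis) of 73 further genes by list (vertical axis) in Atf4WT (blue) and Atf4AKO (orange); filled points passed the DEG threshold and the bar is the median of the list. The list of heme A synthesis and heme attachment had the highest medians, 1.39 in each genotype.

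Promoters (250 bases before to 50 after the start) were in the RefSeq table of GRCm38.p6 for 6 of the 9 genes, which had 10 in all, and motifs were searched on both strands. Alternative promoters of a gene can overlap, so shares are given per gene as well. The core of the NRF1 element, CGCANGCG, was present in 4 of the 10 promoters and 8.21% of all 32851, and thus for 3 of the 6 genes (Alas1, Tfrc and Cpox) and 9.22% of all 27025 genes. TGATGNAA, the core of the C/EBP-ATF composite element, was in none of the 10 promoters and in 3.97% of all, and TGACNNNGC, the core of the antioxidant response element, in none of the 10 and in 12.4% of all.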

How the data were processed

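Strand-specific libraries of polyadenylated iWAT RNA were sequenced, 3 for each of 4 groups, and all 12 were used. The deposited values are a normalized signal: after filtering in SOAPnuke, the authors aligned reads to mm10 (STAR), took the uniquely mapped ones per gene (featureCounts) and divided these by DESeq2 size factors. Tool versions and the strand setting are not given in the sources used here. Division by the value of 1 read gave whole reads for 100% of the values (tolerance 0.001 reads).

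limma 3.58.1 (R 4.3.3, lmFit, then eBayes with a trend) was run with 4 group means on log2(normalized count + 1). It covered 13404 genes averaging 10 or more normalized counts, and 755 genes were left out. A fold change on this scale understates the change of low genes. edgeR 4.0.16 and DESeq2 1.42.0 were run on the recovered reads, at the same DEG threshold, and the tests were checked on simulated reads. p-values measure the spread between these libraries only.

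The 9 genes and all lists, rules and tests were chosen with earlier results of these data known. The text names all 9 genes, up to 4 genes per list and comparison with the smallest p-values past the DEG threshold, and the 3 genes most like each of the 9 that passed. Some genes that this rule picks are not reported here. The labels do not say whether same-numbered libraries were pairs, and the main fits did not pair them. Correlations of their deviations ran from -0.19 to 0.39, above 0.1 in 9 of 18, and for replicate 1 from 0.18 to 0.39.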

Additional observations from a re-analysis of the deposited data

How the results depend on the processing

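The number of the 9 genes past the DEG threshold after cold in Atf4WT was 1, and it was 1 in each fit without a library (1 to 1), 3 with the lymphocyte score as a covariate and 2 by the adjusted p-value. In Atf4AKO it was 1, ranged from 0 to 1 without a library (0 without Atf4AKO RT replicate 1 or replicate 2, and without Atf4AKO cold replicate 1 the 1 gene was Ftl1) and was 0 by the adjusted p-value. Between the genotypes it was 0 at RT under all alternatives, and with the lymphocyte score as a covariate it was 1 after cold and 1 for the difference of the cold responses, namely Alad in both. The 73 further genes that rose in Atf4WT were 15, and 23 with this score, a count added after the data were seen. The other alternatives left the counts of the 9 genes as they were. These were pseudocounts of 0.5 and 5, no filter or a mean of at least 50, only the 2 groups compared, a common 75th percentile, edgeR and DESeq2. The fit with the replicate block also called 1, 1, 0, 0 and 0 of the 9 genes in the 5 comparisons, and its adjusted p-value was under 0.05 for 2 genes in Atf4WT and 1 in Atf4AKO, so the replicate block changed no call at the DEG threshold. Over all genes after cold, it gave 189 adjusted p-values under 0.05 between the genotypes, against 4 without it.

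Of 981 alternative log2 values of the 9 genes in the 5 comparisons, 69 changed sign, none of them a value that passed the DEG threshold. With the lymphocyte score as a covariate the log2 difference after cold turned to -0.41 for Alas1, -0.59 for Alad, -0.045 for Fech and -0.064 for Fth1. The difference of the cold responses turned to -0.57 for Alas1, -0.055 for Fech, -0.10 for Fth1 and -0.14 for Ftl1, and the cold response in Atf4WT to 0.063 for Fech and 0.0086 for Fth1. With the common 75th percentile the values were -0.030 for Cpox between the genotypes after cold, -0.0094 for Fech after cold in Atf4AKO, and -0.031 for Ftl1 and -0.024 for Slc40a1 for the difference of the cold responses. edgeR gave -0.020 for Cpox between the genotypes after cold. The lymphocyte score was highest in cold-exposed Atf4WT, so the fits with it cannot fully separate the score from that group. The cause of these turns was not tested.

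Leaving out 1 library at a time, the log2 difference between the genotypes after cold ranged from -0.0071 to 0.20 for Alad, -0.087 to 0.13 for Cpox, -0.24 to 0.040 for Tfrc, -0.37 to 0.044 for Slc40a1 and -0.32 to 0.81 for Hmox1. At RT it ranged from -0.053 to 0.39 for Alas1, -0.044 to 0.25 for Alad, -0.084 to 0.023 for Cpox, -0.046 to 0.12 for Fech, -0.22 to 0.23 for Tfrc, -0.013 to 0.082 for Fth1, -0.23 to 0.045 for Slc40a1 and -0.22 to 0.031 for Hmox1. The difference of the cold responses ranged from -0.021 to 0.43 for Alas1, -0.14 to 0.15 for Alad, -0.058 to 0.16 for Cpox, -0.30 to 0.15 for Tfrc, -0.045 to 0.13 for Fth1, -0.14 to 0.19 for Ftl1, -0.25 to 0.17 for Slc40a1 and -0.24 to 0.89 for Hmox1. The cold response ranged from -0.13 to 0.16 for Alas1 and -0.31 to 0.046 for Hmox1 in Atf4WT, and from -0.041 to 0.12 for Fech and -0.38 to 0.75 for Hmox1 in Atf4AKO. With 3 libraries a group these small values cannot be given a direction.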
